A study of Homo sapiens with 24 samples.

Results

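The respiratory chain genes of 2 diffuse large B cell lymphoma lines were followed through a drug and an immune-cell treatment. They comprise 121 protein-coding genes, chosen by their symbols: the mitochondrially encoded MT-ND, MT-CO, MT-ATP and MT-CYB genes, and the nuclear NDUF, SDHA to SDHD, UQCR, numbered COX and ATP5 genes. The 121 genes, of 58735 in the count table, split into 13 encoded by mitochondrial DNA and 108 encoded in the nucleus. By complex there were 7 mitochondrial and 46 nuclear genes of complex I, 4 nuclear genes of complex II, 1 and 9 of complex III, 3 and 28 of complex IV, and 2 and 21 of complex V. The nuclear list mixes structural subunits, assembly factors, isoforms of other tissues and 2 readthrough genes.

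RNA was sequenced in bulk from GFP-positive tumour cells of the established lines OCI-Ly18 and SU-DHL-4, sorted as viable, in 8 groups of 3 libraries. Each line had 4 groups, called here TAZ CART19, DMSO CART19, TAZ UTD and DMSO UTD. TAZ stands for tazemetostat at 500 nM, which inhibits EZH2, a histone methyltransferase, and DMSO is its vehicle. The drug or vehicle was given for 72 h and kept on during a further 48 h with CART19 cells, T cells that carry a chimeric antigen receptor, or with UTD cells. The labels do not spell out UTD. Every group had thus been in culture with added cells, both lines carried GFP, and no group was tumour cells alone. The labels do not say whether the 3 libraries of a group were separate cultures, so p-values measure the spread between libraries, which may be technical.

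The respiratory chain passes electrons from NADH (complex I) or succinate (complex II) through ubiquinol and complex III to complex IV, which reduces oxygen, and complex V uses the resulting proton gradient to make ATP. Complexes I, III, IV and V are built from subunits of both genomes, whereas complex II is nuclear throughout. The 13 mitochondrial mRNAs are cut from long transcripts of the mitochondrial genome that run through the rRNA and tRNA genes, while each nuclear gene has a promoter of its own, often with sites for the factors NRF1 and the ETS family member GABP. Diffuse large B cell lymphomas are known to differ in how far they depend on oxidative phosphorylation.

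The stretch of mitochondrial DNA shared by MT-ATP8 and MT-ATP6 is shown because 22.2% of the 207 bases of MT-ATP8 can also give reads to the 681-base MT-ATP6, so the counts of MT-ATP8 are uncertain. It spans 46 bases of the mitochondrial genome, chrM:8527-8572, plus strand, hg38 coordinates of GENCODE 29, and the capitals mark the start codon of MT-ATP6.
MT-ATP8 and MT-ATP6: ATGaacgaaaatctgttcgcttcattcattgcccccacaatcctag
The promoters of 4 nuclear genes are shown because these genes had lower mRNA with tazemetostat in both lines, as described further on, and come from different complexes. Each is the 250 bases before the annotated start in RefSeq, GRCh38.p14, read 5′ to 3′ in the direction of the gene. Capitals mark letters of 2 motifs that are known from respiratory chain promoters, CGCATGCG from the middle of the NRF1 motif and CCGGAAG of the ETS family. COX17, at chr3:119677407-119677656 on the minus strand (the first of 2 entries), makes a copper chaperone of complex IV, and the NRF1 letters start 115 bases before its start. NDUFAB1, at chr16:23596317-23596566 on the minus strand, makes the mitochondrial acyl carrier protein, a complex I subunit, and holds neither motif. SDHB, at chr1:17054033-17054282 on the minus strand, makes the iron-sulfur subunit of complex II, with ETS letters 128 bases before its start. UQCRQ, at chr5:132866392-132866641 on the plus strand, makes a small subunit of complex III, with ETS letters 54 bases before its start.
COX17: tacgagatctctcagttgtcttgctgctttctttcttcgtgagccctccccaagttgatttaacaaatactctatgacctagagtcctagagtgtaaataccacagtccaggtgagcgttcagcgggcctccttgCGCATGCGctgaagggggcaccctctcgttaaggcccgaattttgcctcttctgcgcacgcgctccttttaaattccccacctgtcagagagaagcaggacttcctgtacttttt
NDUFAB1: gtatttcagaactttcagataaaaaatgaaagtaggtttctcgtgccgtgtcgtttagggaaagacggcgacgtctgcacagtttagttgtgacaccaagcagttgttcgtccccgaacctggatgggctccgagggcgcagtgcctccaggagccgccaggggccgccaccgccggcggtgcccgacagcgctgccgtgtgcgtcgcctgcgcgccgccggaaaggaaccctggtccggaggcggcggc
SDHB: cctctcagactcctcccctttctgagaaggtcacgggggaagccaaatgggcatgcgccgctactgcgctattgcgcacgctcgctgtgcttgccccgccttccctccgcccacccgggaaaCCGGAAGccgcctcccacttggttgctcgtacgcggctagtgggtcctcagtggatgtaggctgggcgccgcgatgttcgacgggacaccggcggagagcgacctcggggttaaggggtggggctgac
UQCRQ: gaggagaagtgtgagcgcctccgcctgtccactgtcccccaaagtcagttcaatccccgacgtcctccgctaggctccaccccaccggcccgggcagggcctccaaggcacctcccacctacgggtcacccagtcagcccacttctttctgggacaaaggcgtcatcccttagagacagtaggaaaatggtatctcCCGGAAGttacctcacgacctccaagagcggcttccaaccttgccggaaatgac

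Sequence letters were counted in all promoters to give these motifs a background. Both strands of the 250 bases were searched, any overlap allowed, for CGCATGCG of NRF1, CCGGAAG of the ETS family, AAGATGGCG of YY1 and CACGTG, the E-box that MYC and other factors bind. Of the 108 nuclear genes, 84 had an entry. The ETS letters stood in 23 of these 84 (27.4%), against 10.2% of 27305 genes, and the NRF1 letters in 12 (14.3%), against 2.14%. YY1 letters were found in 1 of the 84 (1.19%, against 0.784% of all) and the E-box in 8 (9.52%, against 7.73%). A match describes letters in the window, and no match says nothing of the factor.

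The libraries held 14783781 to 20148891 counts. A gene was called when its adjusted p in edgeR's quasi-likelihood test, corrected by Benjamini-Hochberg over every gene tested, was under 0.05, and "rose" and "fell" refer to such calls. Levels are CPM (a gene’s counts per 1000000 counts of its library), and fold changes are fitted log2 values with their standard error, scaled by edgeR's TMM factors. All 13 mitochondrial and 99 of the 108 nuclear genes passed the low-count filter in each line, the other 9 being 7 low isoforms or paralogs and the 2 readthrough genes. The B cell markers were all present (8 of 8, summed 2739 to 4900 CPM over the libraries). Of 24 T cell markers, 6 to 16 were at 0 in all 3 libraries of a group, with CD7, GZMA and GZMK at 0 in every group. GZMB was at 0 in every UTD group and in no CART19 group. IFNG and IL2RB were at 0 in every UTD group but SU-DHL-4 TAZ UTD, and in no CART19 group. The number at 0 was 6 in TAZ CART19, 8 in DMSO CART19, 14 in TAZ UTD and 12 in DMSO UTD of OCI-Ly18. In SU-DHL-4 it was 7, 11, 9 and 16 in the same groups. The sum of the 24 was 97.7 to 126 CPM in OCI-Ly18, 178 to 213 CPM in the TAZ groups of SU-DHL-4 and 247 to 277 CPM in its DMSO groups. The part of T cell RNA in the results was not tested. In the SU-DHL-4 TAZ CART19 group, replicate 2 stood apart from the others. Its mitochondrial mRNAs took 6.67% of counts, against 7.97% and 7.51% in replicates 1 and 3, and it held more of several short nuclear mRNAs, such as COX8A (115 CPM, against 61.3 and 71.2 CPM).

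The 13 mitochondrial mRNAs took between 5.46% and 7.97% of all counts, and the 108 nuclear genes together about 1%. In OCI-Ly18 with CART19 the mitochondrial share was 6.60%, 6.26% and 6.68% in the TAZ libraries, against 5.46%, 6.0% and 5.54% in the DMSO libraries, so the groups did not overlap. With UTD it was 6.59%, 6.22% and 5.94% in TAZ libraries, against 5.84%, 6.47% and 6.24% in DMSO libraries, which overlapped. In SU-DHL-4 every TAZ library was above every DMSO library in both co-cultures, though with UTD not under every scaling of the total. The share was 7.38 ± 0.661% in TAZ CART19 and 5.96 ± 0.111% in DMSO CART19, and 7.34 ± 0.118% in TAZ UTD and 6.62 ± 0.357% in DMSO UTD (SD, n = 3 each).

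The nuclear share moved the other way in OCI-Ly18. It was 1.04 ± 0.0328% in TAZ CART19 and 1.16 ± 0.0279% in DMSO CART19, and 0.998 ± 0.0283% in TAZ UTD and 1.08 ± 0.0409% in DMSO UTD, with no overlap between drug and vehicle in either pair. In SU-DHL-4 it was 1.15 ± 0.0541% in TAZ CART19 and 1.12 ± 0.00595% in DMSO CART19, and 1.07 ± 0.0180% in TAZ UTD and 1.12 ± 0.0675% in DMSO UTD, and both pairs overlapped. The ratio of mitochondrial to nuclear counts averaged 6.27 in TAZ CART19 and 4.91 in DMSO CART19 of OCI-Ly18, and 6.46 and 5.31 in the same groups of SU-DHL-4, with no overlap in either line. With UTD it averaged 6.27 in TAZ and 5.72 in DMSO libraries of OCI-Ly18, and 6.88 in TAZ and 5.95 in DMSO libraries of SU-DHL-4, where the libraries overlapped in both lines. No test was run on these shares, since they are sums over a chosen list, and in bulk RNA a change in the mix of cells cannot be told apart from a change per cell.

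**Figure D1:**
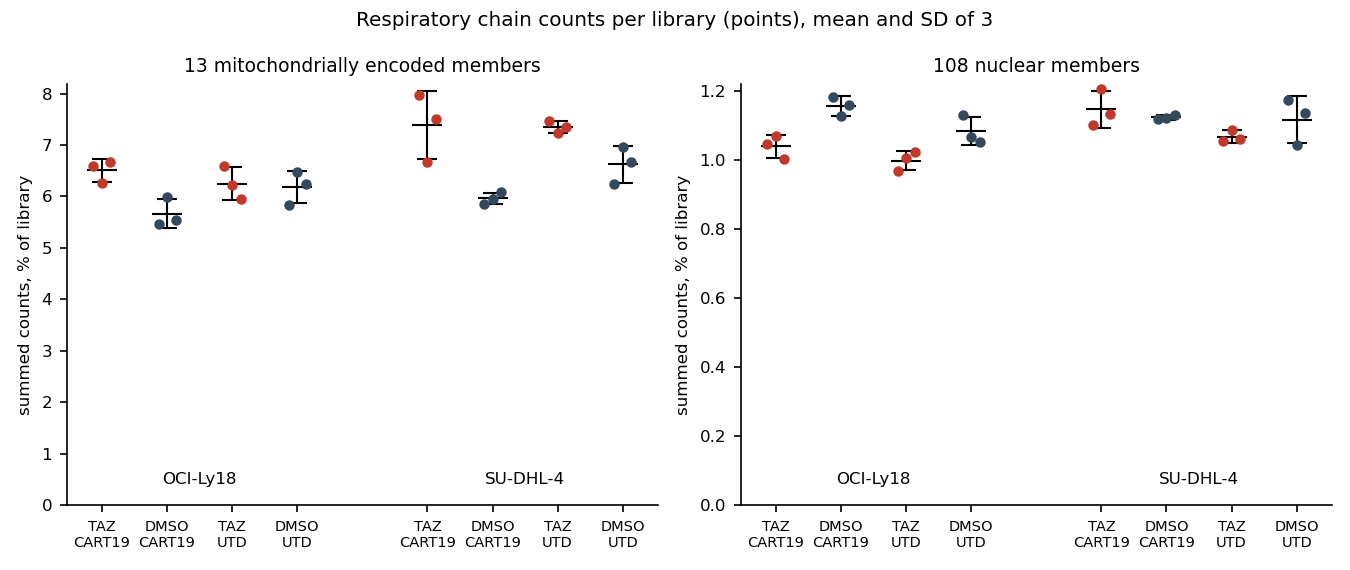
Percent of all counts in each library that came from the 13 mitochondrial genes and from the 108 nuclear genes, with OCI-Ly18 on the left and SU-DHL-4 on the right; points are libraries (red TAZ, dark DMSO), bars the mean and SD of 3. The mitochondrial share of TAZ CART19 libraries lies above that of DMSO CART19 libraries in both lines, while the nuclear share of TAZ libraries lies below DMSO in OCI-Ly18 and overlaps it in SU-DHL-4.

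Other RNA measures moved with the drug, and their part in these shares was not tested. The mitochondrial rRNAs averaged 0.798% of counts in TAZ CART19 and 0.608% in DMSO CART19 of OCI-Ly18, and 0.912% and 0.707% in the same groups of SU-DHL-4. With UTD they averaged 0.718% in TAZ and 0.721% in DMSO libraries of OCI-Ly18, and 0.873% in TAZ and 0.743% in DMSO libraries of SU-DHL-4. MALAT1, a nuclear noncoding RNA, averaged 233 CPM in TAZ UTD and 151 CPM in DMSO UTD of OCI-Ly18. These overlapped, as replicate 2 had 182.4 CPM in TAZ and 182.5 CPM in DMSO. In SU-DHL-4 MALAT1 averaged 212 CPM in TAZ UTD and 135 CPM in DMSO UTD, without overlap. With CART19 it had 183, 154 and 190 CPM in TAZ, against 184, 147 and 140 CPM in DMSO libraries of OCI-Ly18, which overlapped, and 242, 239 and 238 CPM, against 182, 191 and 186 CPM in SU-DHL-4. The rank correlation of CPM deviations with gene length describes each library. It averaged 0.059 in TAZ UTD and -0.016 in DMSO UTD of OCI-Ly18, and 0.135 and -0.018 in the same groups of SU-DHL-4. Longer transcripts thus weighed more in TAZ UTD libraries on average. The libraries overlapped in OCI-Ly18 (-0.010 in TAZ UTD replicate 3 and 0.017 in DMSO UTD replicate 3), not in SU-DHL-4. With CART19 the correlation averaged 0.065 in TAZ and -0.108 in DMSO libraries of OCI-Ly18. In SU-DHL-4 it averaged -0.034 in TAZ and -0.075 in DMSO libraries, so TAZ CART19 differed from TAZ UTD there. The CART19 libraries overlapped in both lines.

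Among single mitochondrial mRNAs, MT-ND1, MT-CYB, MT-CO1 and MT-CO2 rose with tazemetostat in both lines in cells that met CART19, and MT-ND2, MT-ND4, MT-CO3, MT-ATP6 and MT-ATP8 rose in SU-DHL-4. In OCI-Ly18, 4 of the 13 rose and 0 fell by edgeR, with 7 higher and 0 lower at an unadjusted p under 0.05 and 5 and 0 by DESeq2 (background: 11% of 16467 genes rose and 10.6% fell). Of the 13, 12 had fitted values above 0, and the median was 0.17 on the log2 scale, against 0.01 over all genes tested. In SU-DHL-4, 9 of the 13 rose and 0 fell by edgeR, the same at an unadjusted p under 0.05 and by DESeq2 (background: 16.1% of 14861 genes rose and 18.7% fell). All 13 were above 0, and the median was 0.21, against 0.00 over all genes tested. The 10 whose SU-DHL-4 libraries did not overlap, all higher with TAZ, compare with 25.6% of all genes.

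MT-CO1, the catalytic core of complex IV (chrM:5904-7445, plus strand), is the most abundant of the 13, with 29.6% of mitochondrial mRNA counts in OCI-Ly18 and 26.5% in SU-DHL-4. In OCI-Ly18 it had 20515, 18632 and 20290 CPM in TAZ CART19 libraries, against 15586, 17501 and 15811 CPM in DMSO CART19 libraries, and its fold change was 0.26 ± 0.057 (adjusted p = 0.00322, edgeR). In SU-DHL-4 it had 22190, 17946 and 20745 CPM in TAZ CART19, against 15322, 15288 and 15491 CPM in DMSO CART19 (0.34 ± 0.076, adjusted p = 0.0064, edgeR). Every TAZ library was above every DMSO library in both lines, and replicate 2 was the lowest TAZ library in both. MT-CO2, which takes electrons from cytochrome c, had 7734, 7458 and 7668 CPM in TAZ CART19 of OCI-Ly18, against 6225, 7105 and 6592 CPM in DMSO CART19 (0.17 ± 0.043). In SU-DHL-4 MT-CO2 had 8933, 7115 and 8178 CPM, against 6007, 5947 and 6261 CPM (0.35 ± 0.075). Neither line's groups overlapped for it. MT-CO3 rose by the edgeR test in SU-DHL-4 (9082 ± 91.1 CPM in TAZ CART19 and 8153 ± 352 CPM in DMSO CART19, log2 0.09 ± 0.037), whereas in OCI-Ly18 its fitted value was 0.00 ± 0.052.

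MT-CYB, the core subunit of complex III, had 4127, 3869 and 4376 CPM in TAZ CART19 of OCI-Ly18, against 3261, 3689 and 3392 CPM in DMSO CART19 (0.23 ± 0.058, adjusted p = 0.00662, edgeR). In SU-DHL-4 it had 6002, 4731 and 5461 CPM, against 4091, 4242 and 4272 CPM (0.30 ± 0.088, adjusted p = 0.0271, edgeR). All TAZ values exceeded all DMSO values. Of the 7 complex I messages, MT-ND1, part of the membrane arm, had 2403, 2472 and 2619 CPM in TAZ CART19 of OCI-Ly18, against 2037, 2151 and 1983 CPM in DMSO CART19 (0.26 ± 0.045). In SU-DHL-4 MT-ND1 had 4440, 3720 and 4110 CPM, against 3298, 3411 and 3466 CPM (0.21 ± 0.050). Again no values overlapped. MT-ND2 and MT-ND4, also of the membrane arm, rose in SU-DHL-4 (0.15 ± 0.042 and 0.28 ± 0.087) and had uncalled values of 0.13 ± 0.050 and 0.24 ± 0.091 in OCI-Ly18.

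Not all complex I messages followed. MT-ND3 had fitted values of -0.18 ± 0.16 in OCI-Ly18 and 0.09 ± 0.12 in SU-DHL-4 with CART19, MT-ND5 0.11 ± 0.083 and 0.06 ± 0.080, and MT-ND4L 0.11 ± 0.12 and 0.14 ± 0.11, none of them called. MT-ND6, the one gene of the 13 on the opposite strand, had 0.24 ± 0.16 and 0.21 ± 0.14, not called. Reads of MT-ND6 cannot be told apart from those of transcripts opposite to it, since the sources do not say whether counting used strand. Of complex V, MT-ATP6, part of the proton channel, rose in SU-DHL-4 (6629 ± 847 CPM in TAZ CART19 and 5273 ± 65.6 CPM in DMSO CART19, log2 0.27 ± 0.088) and had 0.13 ± 0.056 in OCI-Ly18. MT-ATP8 rose in SU-DHL-4 (53.5 ± 9.86 CPM and 42.1 ± 4.11 CPM, 0.28 ± 0.095), with the shared reads described above.

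**Figure D2:**
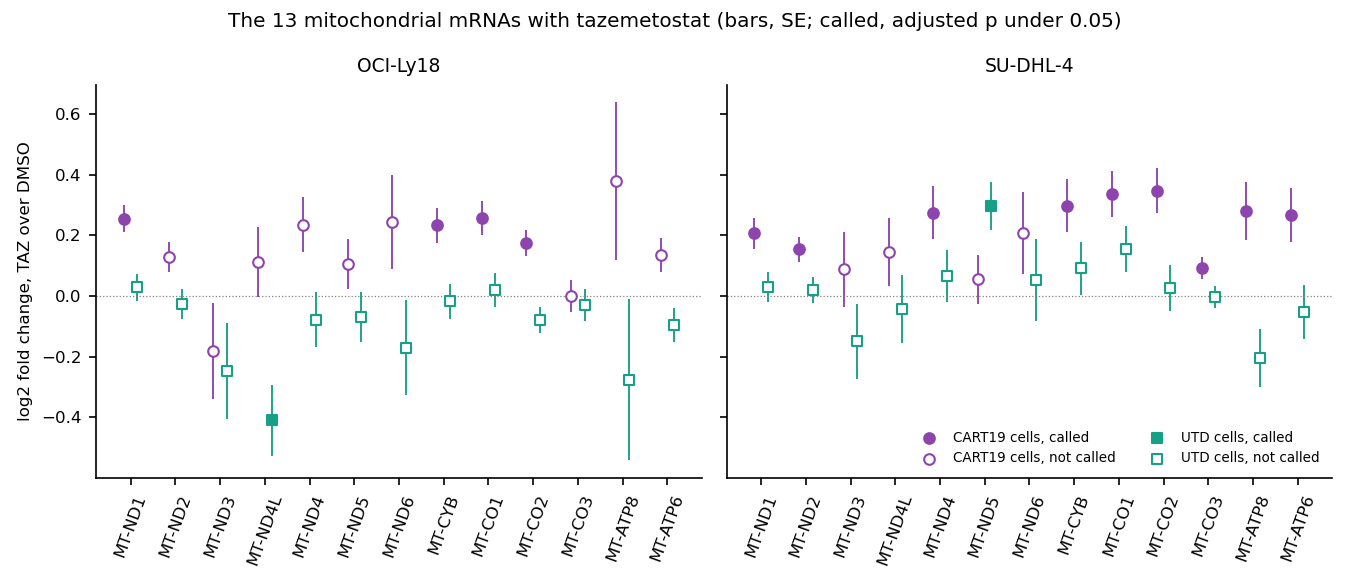
Fitted log2 fold change of TAZ over DMSO with its standard error for each of the 13 mitochondrial mRNAs, OCI-Ly18 and SU-DHL-4 in separate panels; purple circles are CART19 co-cultures, green squares UTD co-cultures, and filled symbols were called. With CART19 most symbols lie above 0 and those of MT-ND1, MT-CYB, MT-CO1 and MT-CO2 are filled in both lines, while with UTD only MT-ND4L of OCI-Ly18 and MT-ND5 of SU-DHL-4 are filled.

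These counts moved with single libraries and settings. Without replicate 2 of TAZ CART19, 6 mitochondrial mRNAs rose in OCI-Ly18 and 10 in SU-DHL-4, and without DMSO CART19 replicate 2, 7 rose in OCI-Ly18. The SU-DHL-4 count was 4 or 5 without DMSO CART19 replicate 1, DMSO CART19 replicate 2 or TAZ CART19 replicate 3, and 6 once length and GC trends were removed within each library, which gave 6 in OCI-Ly18 too. In SU-DHL-4 the call of MT-ATP6 was lost in 8 of the 12 fits that left out 1 library, those of MT-ND4 and MT-CO3 in 4, that of MT-CYB in 3, that of MT-ATP8 in 2 and that of MT-ND2 in 1. In OCI-Ly18 MT-CO2 lost its call without DMSO CART19 replicate 1.

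With UTD cells, 1 mitochondrial mRNA was called in each line. In OCI-Ly18 MT-ND4L fell and 0 rose by edgeR, at an unadjusted p under 0.05 and by DESeq2 (background: 11.6% rose and 12.7% fell), and the median was -0.08, against 0.02 over all genes tested. MT-ND4L had 995, 996 and 868 CPM in TAZ UTD, against 1020, 1381 and 1244 CPM in DMSO UTD, without overlap (-0.41 ± 0.12, adjusted p = 0.0321, edgeR). Once length and GC trends were removed, MT-ND4L was no longer called and the median of the 13 was 0.02. Without DMSO UTD replicate 1, 3 of the 13 were called lower, and without any other TAZ UTD or DMSO UTD library MT-ND4L was not called. In SU-DHL-4 MT-ND5 rose and 0 fell by edgeR, with 1 higher and 1 lower at an unadjusted p under 0.05 and 2 and 0 by DESeq2 (background: 17.2% rose and 18.3% fell), with a median of 0.03. It was not called without DMSO UTD replicate 3. MT-ND5, the last antiporter-like subunit of complex I, had 5590, 5498 and 5603 CPM in TAZ UTD, against 4017, 4785 and 4094 CPM in DMSO UTD (0.30 ± 0.080, adjusted p = 0.0163, edgeR). All 3 TAZ values lay above the DMSO values and close together. In SU-DHL-4 the summed mitochondrial CPM was thus higher in TAZ UTD than in DMSO UTD while the fitted median was near 0. The fit used TMM factors of 1.03 in TAZ UTD and 0.975 to 0.980 in DMSO UTD libraries, which the CPM do not include.

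With UTD cells, many nuclear genes had less mRNA under tazemetostat in both lines. In OCI-Ly18, 35 of 99 fell and 1 rose, against 12.7% of all genes tested that fell and 11.6% that rose. In SU-DHL-4, 38 of 99 fell and 1 rose, against 18.3% and 17.2%. The median nuclear fold change was -0.15 in OCI-Ly18 and -0.17 in SU-DHL-4, against 0.02 and 0.01 over all genes tested, and 72 and 80 of the 99 were below 0. In OCI-Ly18, 32 nuclear genes had all TAZ UTD libraries below all DMSO UTD libraries and 5 had them above, against 13.8% and 23.7% of all genes. In SU-DHL-4 these counts were 17 and 7, against 16.5% and 28.5% of all genes, so the share without overlap on the low side was near that of all genes there.

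The counts of falling nuclear genes depended on libraries and scaling. In OCI-Ly18 the 35 became 23 without DMSO UTD replicate 2 and 22 without TAZ UTD replicate 1. In SU-DHL-4 the 38 became 22 without DMSO UTD replicate 1, 24 without DMSO UTD replicate 3 and 25 without TAZ UTD replicate 3, 23 when both lines were fitted together, and 12, beside 5 rising, under upper quartile scaling. With length and GC trends removed they were 30 in OCI-Ly18 and 34 in SU-DHL-4.

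In complex I, 14 of 45 nuclear genes fell in OCI-Ly18 and 17 in SU-DHL-4. NDUFAB1, the acyl carrier protein, had 67.2, 67.5 and 73.4 CPM in TAZ UTD of OCI-Ly18, against 89.0, 97.9 and 87.5 CPM in DMSO UTD (-0.46 ± 0.070, adjusted p = 7.71e-06, edgeR). In SU-DHL-4 it had 96.9, 94.5 and 92.6 CPM, against 124, 123 and 129 CPM (-0.48 ± 0.058, adjusted p = 5.68e-09, edgeR). It was among the steepest falls of both lines, with wide gaps between drug and vehicle. NDUFS5, an accessory subunit, fell by 0.39 on the log2 scale in OCI-Ly18 and by 0.40 in SU-DHL-4, and NDUFA6, another, fell by 0.44 and 0.31. Of the accessory subunits, which surround the catalytic core, 11 of 30 fell in OCI-Ly18 and 10 of 30 in SU-DHL-4. Of the 7 nuclear core subunits that carry the flavin and iron-sulfur clusters, NDUFS1 fell in OCI-Ly18 and NDUFS1, NDUFS3, NDUFS8 and NDUFV1 fell in SU-DHL-4. Those 4 calls were lost in 2, 5, 3 and 1 of the 12 fits that left out 1 library.

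Among complex I assembly factors, NDUFAF5 and NDUFAF4 fell. NDUFAF5 had 11.1, 11.6 and 11.2 CPM in TAZ UTD of OCI-Ly18, against 13.9, 15.4 and 15.7 CPM (-0.47 ± 0.13). NDUFAF4 fell in both lines, by 0.32 in OCI-Ly18 and by 0.37 in SU-DHL-4, where the call was lost with length and GC trends removed (-0.17, adjusted p = 0.0767, edgeR).

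Complex II, which also belongs to the citric acid cycle, split by subunit and line. SDHB had 53.7, 53.7 and 55.8 CPM in TAZ UTD of OCI-Ly18, against 69.3, 65.6 and 72.2 CPM in DMSO UTD, well apart (-0.40 ± 0.073, adjusted p = 9.31e-05, edgeR), and fell by 0.18 in SU-DHL-4, a call lost without DMSO UTD replicate 3. SDHA, the flavoprotein that oxidises succinate, had 132, 141 and 138 CPM in TAZ UTD of SU-DHL-4, against 184, 167 and 170 CPM (-0.41 ± 0.055, adjusted p = 4.43e-08, edgeR). In OCI-Ly18 SDHA had 130, 152 and 134 CPM, against 148, 130 and 127 CPM, overlapping (-0.02 ± 0.068). The line difference in the SDHA response was itself called (-0.37 ± 0.090, SU-DHL-4 minus OCI-Ly18, adjusted p = 0.00372, edgeR). SDHA has pseudogenes that held 17981 counts, beside 58895 for SDHA, so reads may be split among them. The membrane anchors SDHC and SDHD were not called, SDHC at 0.08 ± 0.067 in OCI-Ly18 and 0.10 ± 0.070 in SU-DHL-4, SDHD at -0.17 ± 0.080 in OCI-Ly18 and 0.15 ± 0.069 in SU-DHL-4.

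In complex III, 4 of 9 genes fell in each line. UQCRC1, a core scaffold protein, UQCRFS1, the Rieske iron-sulfur protein, and UQCRQ fell in both lines, by 0.21, 0.21 and 0.23 in OCI-Ly18 and by 0.17, 0.17 and 0.31 in SU-DHL-4. UQCRC2, the other core scaffold protein, fell by 0.21 in OCI-Ly18 (211 ± 3.36 CPM in TAZ UTD and 235 ± 8.94 CPM in DMSO UTD) and UQCR11 by 0.22 in SU-DHL-4.

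In complex IV, 7 of 22 nuclear genes fell in OCI-Ly18 and 6 in SU-DHL-4. COX17 had 16.6, 14.5 and 16.8 CPM in TAZ UTD of OCI-Ly18, against 22.3, 24.3 and 18.9 CPM in DMSO UTD (-0.51 ± 0.17, adjusted p = 0.0392, edgeR), and 29.2, 28.0 and 26.3 CPM against 37.5, 29.3 and 41.5 CPM in SU-DHL-4 (-0.45 ± 0.13, adjusted p = 0.0103, edgeR). Groups did not overlap, but both calls were lost with length and GC trends removed (adjusted p = 0.209 and 0.0819, edgeR) and in the fit of all 24 libraries (0.0633 and 0.0765). With 1 library left out, the call was lost in 7 of 12 fits in OCI-Ly18 and without DMSO UTD replicate 3 or TAZ UTD replicate 3 in SU-DHL-4. Among the 11 structural subunits, COX7A2 fell by 0.34 in OCI-Ly18 and by 0.17 in SU-DHL-4, and COX7B by 0.32 and 0.25. COX16, an assembly factor, had the steepest fitted fall in SU-DHL-4 (-1.03 ± 0.41), at no more than 2.15 CPM on average and with 36% of its exon bases shared with a readthrough gene.

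In complex V, 9 of 19 genes fell in each line. Of the F1 head, which makes ATP, the alpha, beta and gamma subunits ATP5F1A, ATP5F1B and ATP5F1C fell in both lines, by 0.18, 0.26 and 0.31 in OCI-Ly18 and by 0.12, 0.19 and 0.23 in SU-DHL-4. ATP5F1B, the catalytic beta subunit and the nuclear gene with the highest level per kilobase (747 CPM per kb in OCI-Ly18 and 690 in SU-DHL-4), had 1503, 1557 and 1568 CPM in TAZ UTD of OCI-Ly18, against 1804, 1754 and 1773 CPM in DMSO UTD. In SU-DHL-4 it had 1534, 1554 and 1510 CPM, against 1680, 1648 and 1654 CPM, and neither pair overlapped. ATP5MD (chr10:103389041-103396492, minus strand, hg38), a small membrane subunit that helps complex V dimers form, had 52.4, 54.6 and 53.9 CPM in TAZ UTD of OCI-Ly18, against 76.3, 78.7 and 75.6 CPM (-0.58 ± 0.086, adjusted p = 7.72e-06, edgeR), and fell by 0.32 in SU-DHL-4.

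The delta subunit of the F1 head, ATP5F1D, was the nuclear gene that rose in OCI-Ly18, with 151, 177 and 184 CPM in TAZ UTD, against 142, 126 and 144 CPM in DMSO UTD (0.25 ± 0.080, adjusted p = 0.0272, edgeR). In SU-DHL-4 it fell (217 ± 4.09 CPM in TAZ UTD and 236 ± 16.1 CPM in DMSO UTD, -0.20 ± 0.050), and the line difference was called (-0.43 ± 0.094, adjusted p = 0.00137, edgeR). The OCI-Ly18 rise was lost without DMSO UTD replicate 2, TAZ UTD replicate 2 or TAZ UTD replicate 3, and with length and GC trends removed (0.05, adjusted p = 0.586, edgeR).

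**Figure D3:**
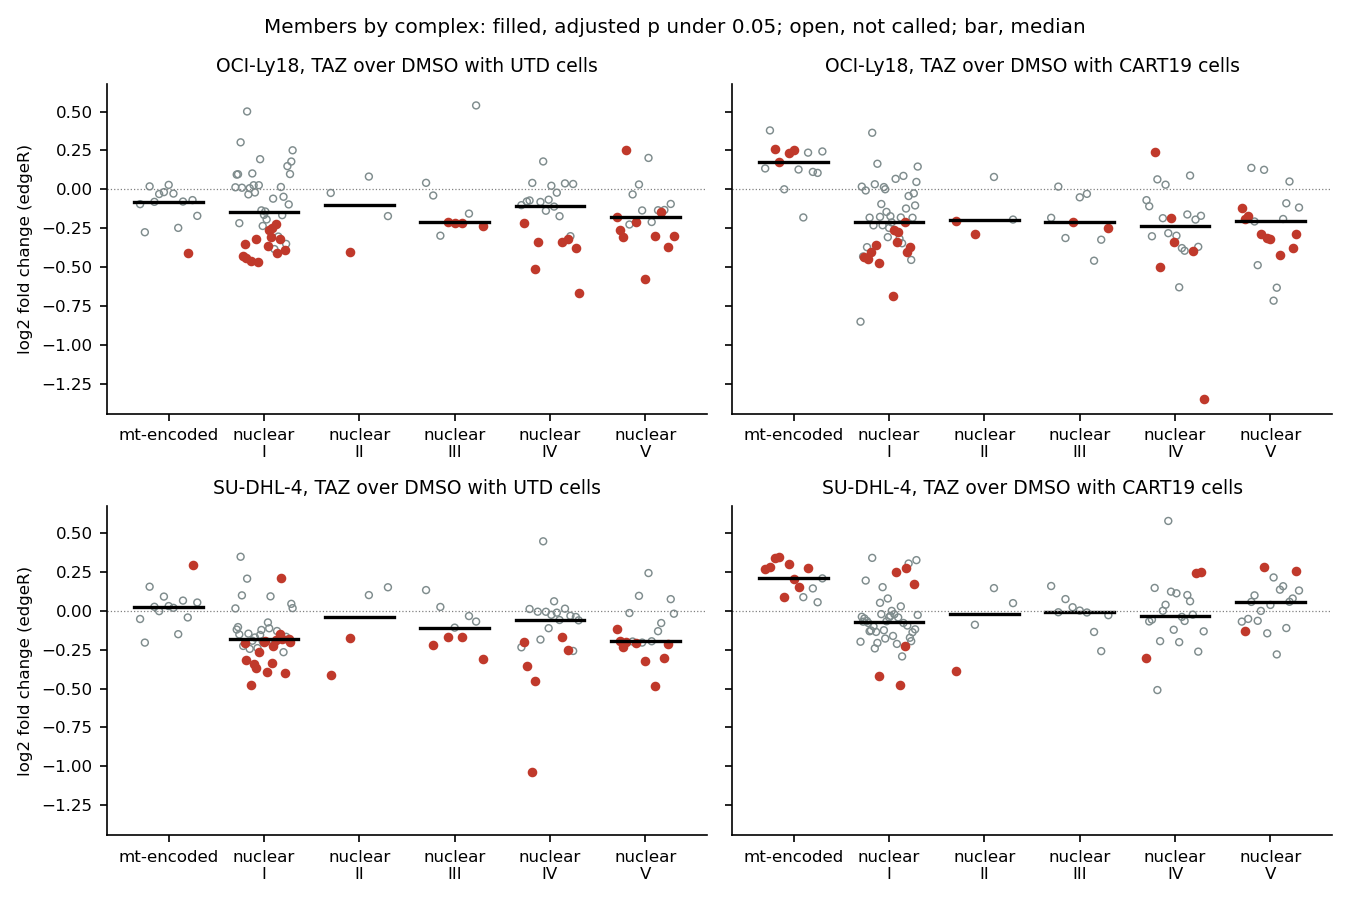
Fitted log2 fold change of TAZ over DMSO for every tested gene, by mitochondrial encoding and by nuclear complex I to V, in 4 panels (OCI-Ly18 and SU-DHL-4, UTD and CART19); filled points were called and bars are medians. Nuclear medians lie below 0 in both UTD panels and in OCI-Ly18 with CART19, but near 0 in SU-DHL-4 with CART19, where 9 of 13 mitochondrial points are filled above 0.

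Some of these falls occurred in both lines. With UTD, 23 nuclear genes fell in both lines, which is 65.7% of the 35 in OCI-Ly18 and 60.5% of the 38 in SU-DHL-4, and 66 of 99 had values below 0 in both. The share of all genes that fell in both lines was not counted, so these numbers have no background. Across the 99 nuclear genes the fold changes of the lines had a Pearson r of 0.35, given as a description over genes that are not independent. Beside NDUFAB1, SDHB, COX17, UQCRQ and ATP5MD, the 23 held ATP5F1A, ATP5F1B, ATP5F1C, ATP5MC1, ATP5MG, ATP5PF, COX11, COX7A2, COX7B, NDUFA5, NDUFA6, NDUFAF4, NDUFB6, NDUFB9, NDUFS1, NDUFS5, UQCRC1 and UQCRFS1. Of these 23, 18 had a promoter entry, and the ETS letters stood in 7 (38.9%), the NRF1 letters in 4 (22.2%), the YY1 letters in 1 (5.56%) and the E-box in 0, against 27.4%, 14.3%, 1.19% and 9.52% of the 84 nuclear genes with an entry. None of the 13 mitochondrial genes fell in both lines.

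**Figure D4:**
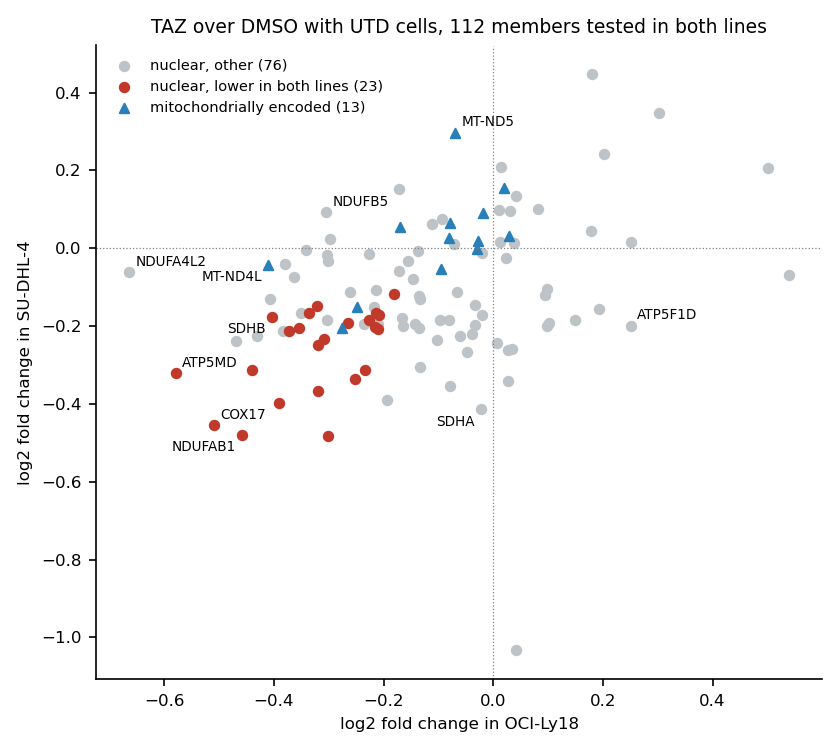
Fitted log2 fold change of TAZ over DMSO with UTD cells, OCI-Ly18 on the horizontal and SU-DHL-4 on the vertical axis, for the 112 tested genes: 23 nuclear genes that fell in both lines (red), 76 other nuclear genes (grey) and 13 mitochondrial genes (blue triangles). The red points fill the lower left, with ATP5MD, COX17 and NDUFAB1 farthest out. The blue triangles range from -0.41 (MT-ND4L) to 0.03 in OCI-Ly18 and from -0.20 to 0.30 (MT-ND5) in SU-DHL-4.

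With CART19 cells the lines parted. In OCI-Ly18, 30 of 99 nuclear genes fell and 1 rose with tazemetostat (background 10.6% and 11%), with a median of -0.21, whereas in SU-DHL-4, 6 fell and 7 rose (background 18.7% and 16.1%), with a median of -0.04 that became 0.05 under upper quartile scaling. The OCI-Ly18 falls numbered 20 without DMSO CART19 replicate 1 and 47 without TAZ CART19 replicate 2. In SU-DHL-4, 8 rose and 21 fell without TAZ CART19 replicate 2, the library that stood apart, and 16 rose and 4 fell under upper quartile scaling. By complex, the falls in OCI-Ly18 were 12 of 45 in complex I, 2 of 4 in complex II, 2 of 9 in complex III, 5 of 22 in complex IV and 9 of 19 in complex V.

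Among the steep falls in OCI-Ly18 with CART19 were NDUFA4L2, described further on, and several complex I genes. NDUFB3, an accessory subunit of the membrane arm, had 13.9, 18 and 15.2 CPM in TAZ CART19, against 28.5, 20.1 and 25.7 CPM in DMSO CART19, without overlap (-0.68 ± 0.13, adjusted p = 0.00023, edgeR). NDUFS3, a core subunit, had 57.6, 58.5 and 55.1 CPM, against 76.7, 72.5 and 73.7 CPM (-0.41 ± 0.068, adjusted p = 3.92e-05, edgeR). NDUFAF2, an assembly factor, fell in both lines, with 14.4 ± 1.31 CPM in TAZ CART19 and 19.7 ± 2.63 CPM in DMSO CART19 of OCI-Ly18, and 21.5 ± 3.47 and 27.5 ± 2.13 CPM in SU-DHL-4, and its call in OCI-Ly18 was lost without DMSO CART19 replicate 1. NDUFA12 fell by 0.44 and ATP5MG, a membrane subunit of complex V, by 0.42 in OCI-Ly18. All 11 structural subunits of complex IV had values below 0 there, and 3 of them (COX4I1, COX5A and COX7B) fell.

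In SU-DHL-4 with CART19 the changes were few and in both directions. SDHA had 122, 136 and 122 CPM in TAZ CART19, against 154, 157 and 163 CPM in DMSO CART19, clear of each other as with UTD (-0.39 ± 0.055, adjusted p = 2.27e-07, edgeR). ATP5MC2, a gene of the c-ring that turns with the proton flow, had 239, 261 and 243 CPM, against 192, 195 and 197 CPM (0.28 ± 0.050, adjusted p = 1.1e-05, edgeR). NDUFB5, ATP5PO, NDUFA4, COX7C and NDUFS8 were among the others that rose, by 0.18 to 0.25 on the log2 scale. COX7C was not called in the fit of all 24 libraries (adjusted p = 0.0717, edgeR). COX10, which makes the heme A precursor of complex IV, NDUFS1 and ATP5F1B fell, by 0.31, 0.22 and 0.13, and the calls of COX10 and ATP5F1B were lost under upper quartile scaling (adjusted p = 0.0852 and 0.359, edgeR) and without DMSO CART19 replicate 2 for COX10 or DMSO CART19 replicate 1 for ATP5F1B. SDHA, NDUFAF2, NDUFS1 and ATP5F1B fell in both lines with CART19.

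The drug effects of the lines were then set against each other. For the drug effect with CART19, 16 of 101 nuclear genes had a higher response in SU-DHL-4 than in OCI-Ly18 and 0 a lower one by edgeR (background 5.92% and 4.2%). DESeq2 called 17 higher and 0 lower, and 28 were higher and 0 lower at an unadjusted p under 0.05. The count was 14 to 17 without any 1 of 7 libraries, which were OCI-Ly18 DMSO UTD replicate 1 and TAZ CART19 replicate 2, all 3 SU-DHL-4 DMSO UTD replicates, TAZ UTD replicate 3 and DMSO CART19 replicate 3, and 4 to 10 without any 1 of the other 17. Of the 16, 6 were among the 12 stalk and membrane genes of complex V, 4 among the 11 structural subunits of complex IV, and 2 each among core and accessory subunits of complex I. ATP5PO, the stator subunit that holds the head still, had 38.2, 45.3 and 43.4 CPM in TAZ CART19 of OCI-Ly18, against 49.8, 47.5 and 55.2 CPM in DMSO CART19, and 51.7, 56.8 and 52.0 CPM against 42.6, 42.1 and 44.0 CPM in SU-DHL-4. It fell in one line and rose in the other, and the difference was 0.57 ± 0.12 (adjusted p = 0.000549, edgeR), a call kept without any 1 of the 24 libraries. The OCI-Ly18 fall of ATP5PO was lost without DMSO CART19 replicate 3 or TAZ CART19 replicate 1.

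For the drug effect with UTD, 3 nuclear genes responded higher and 3 lower in SU-DHL-4 (background 6.9% and 3.66%), and with single libraries left out 1 to 5 were higher and 2 to 4 lower. NDUFB5, NDUFA4 and SDHD had the higher response (0.42, 0.36 and 0.35), and ATP5F1D, SDHA and NDUFV1 the lower one (-0.43, -0.37 and -0.28). Both shares are below the background. With 1 library left out, the call of SDHD was lost in 18 of 24 fits, that of NDUFA4 in 11 and that of NDUFV1 in 6, and those of NDUFB5, ATP5F1D and SDHA in 0. NDUFB5, an accessory subunit, had 48.0, 42.5 and 50.6 CPM in TAZ UTD of OCI-Ly18, against 53.8, 60.6 and 52.9 CPM in DMSO UTD, and 120, 116 and 115 CPM against 104, 102 and 106 CPM in SU-DHL-4, where its fitted value of 0.09 was not called. No mitochondrial mRNA differed by this test between the lines in the drug effect. All 13 were on the higher side for SU-DHL-4 with UTD, where edgeR called 0 and DESeq2 1, with 2 at an unadjusted p under 0.05. With CART19 edgeR and DESeq2 called 0, with 0 at an unadjusted p under 0.05.

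NDUFA4 and its paralog NDUFA4L2 both responded in OCI-Ly18. NDUFA4 is a subunit of complex IV, and NDUFA4L2 is known from hypoxic cells as its inducible relative. NDUFA4L2 (chr12:57234903-57240715, minus strand, hg38) had 2.33, 3.39 and 1.72 CPM in TAZ CART19 of OCI-Ly18, against 6.65, 5.36 and 6.62 CPM in DMSO CART19 (-1.35 ± 0.24, adjusted p = 6.97e-05, edgeR), the largest fold change of any nuclear gene called there. With UTD it had 4.04, 3.63 and 5.20 CPM, against 6.26, 6.58 and 6.77 CPM (-0.66 ± 0.23, adjusted p = 0.0297, edgeR), a call lost without DMSO UTD replicate 2, DMSO UTD replicate 3, TAZ UTD replicate 1 or TAZ UTD replicate 2. TAZ and DMSO libraries did not overlap in either co-culture. In SU-DHL-4 its levels were 10.4 ± 1.13 CPM in TAZ CART19 and 10.9 ± 1.31 CPM in DMSO CART19, and 12.8 ± 0.540 and 12.7 ± 0.382 CPM with UTD, not called. The line difference was called with CART19 (1.24 ± 0.26, adjusted p = 0.000833, edgeR).

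NDUFA4 had 121, 127 and 125 CPM in TAZ UTD of OCI-Ly18, against 160, 156 and 149 CPM in DMSO UTD (-0.38 ± 0.077, adjusted p = 0.000693, edgeR), and 154, 151 and 115 CPM against 153, 156 and 156 CPM with CART19, where replicate 3 alone was low and the gene was not called. In SU-DHL-4 it had 311, 310 and 280 CPM in TAZ CART19, against 252, 231 and 244 CPM in DMSO CART19 (0.25 ± 0.054, adjusted p = 0.000268, edgeR). With UTD it had 244, 258 and 250 CPM, against 248, 219 and 265 CPM, which overlapped (-0.04 ± 0.054, and 0.12 with length and GC trends removed).

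**Figure D5:**
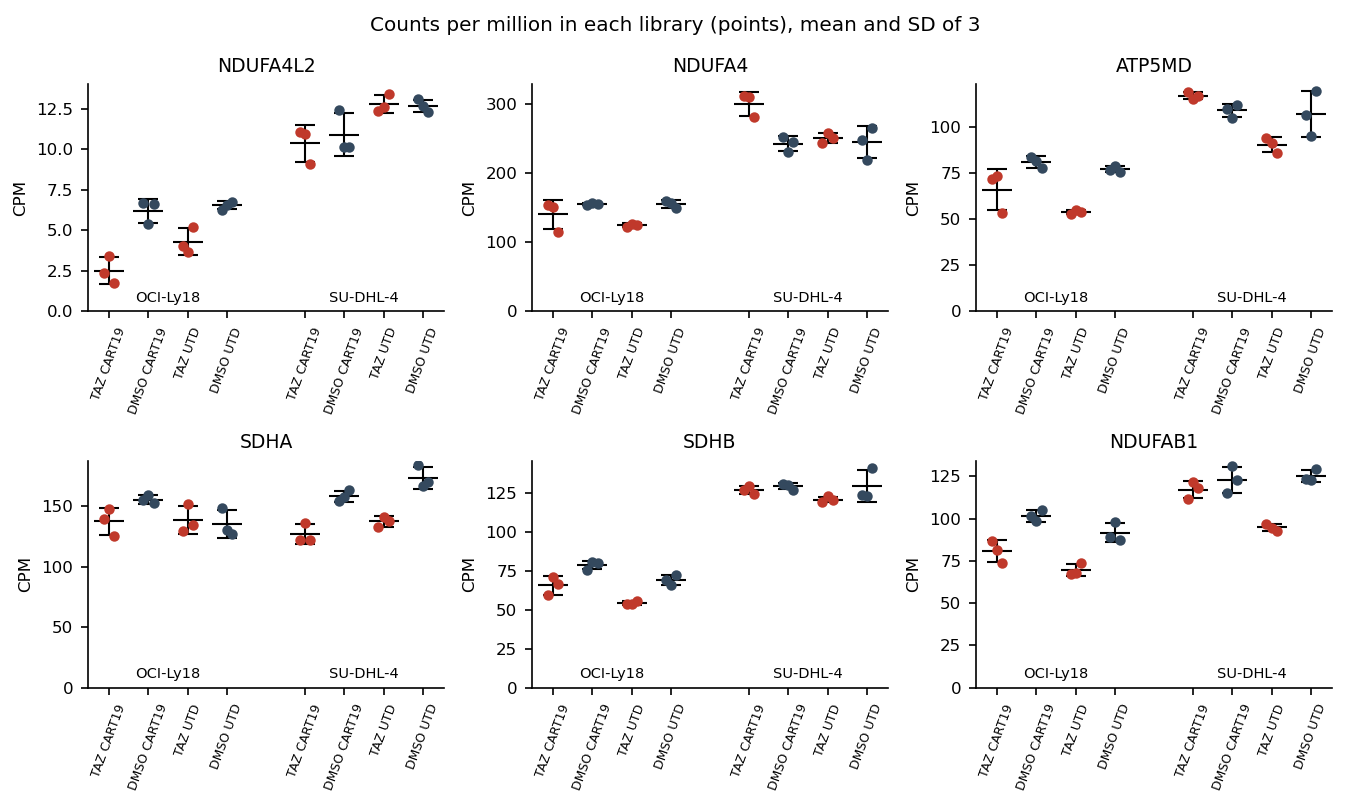
CPM in each library for NDUFA4L2, NDUFA4, ATP5MD, SDHA, SDHB and NDUFAB1 in the 8 groups, TAZ left of DMSO. NDUFA4L2 of OCI-Ly18 is lower in TAZ than in DMSO libraries while its SU-DHL-4 libraries lie at 9.06 to 13.4 CPM in every group. SDHA was called lower with the drug in SU-DHL-4 only with UTD cells, and in both lines with CART19 cells.

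In OCI-Ly18, fewer members were called for CART19 against UTD cells than for the drug. In SU-DHL-4 this held under DMSO. Under TAZ, more members were called there than for the drug with CART19, and fewer than for the drug with UTD. In OCI-Ly18 under DMSO, 8 nuclear genes rose and 0 fell, and MT-ND1 fell (background 6.27% rose and 4.75% fell). DESeq2 called 7 and 0 nuclear genes, and at an unadjusted p under 0.05, 26 were higher and 1 lower. The edgeR count was 0 without DMSO UTD replicate 2, 1 without DMSO UTD replicate 3, DMSO CART19 replicate 1 or DMSO CART19 replicate 3, 4 without TAZ UTD replicate 2 or DMSO CART19 replicate 2, and 13 without TAZ CART19 replicate 2. COX7B had 96.4, 95.2 and 88.3 CPM in DMSO CART19, against 81.0, 75.0 and 75.0 CPM in DMSO UTD (0.30 ± 0.084), and SDHA had 155, 159 and 152 CPM, against 148, 130 and 127 CPM (0.23 ± 0.068), with no overlap. Under TAZ, 11 nuclear genes rose and NDUFA4L2 fell, and MT-ND4L and MT-CO2 rose (background 8.33% and 5.05%). The NDUFA4L2 call was lost in 8 of the 12 fits that left out 1 library (adjusted p up to 0.220, edgeR). Without TAZ CART19 replicate 3 the nuclear rises numbered 17, and neither mitochondrial call was made without TAZ UTD replicate 3, TAZ CART19 replicate 1 or TAZ CART19 replicate 3. SDHB had 59.3, 71.1 and 66.3 CPM in TAZ CART19, against 53.7, 53.7 and 55.8 CPM in TAZ UTD (0.33 ± 0.073, adjusted p = 0.00156, edgeR), and NDUFB5 rose by 0.43. The TAZ UTD libraries enter this comparison and the drug comparison with UTD, so genes low there affect both.

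In SU-DHL-4 under DMSO, NDUFB8 rose, UQCRC2 fell and MT-CO3 fell (background 4.62% rose and 3.18% fell). NDUFB8 shares 48.5% of its exon bases with other genes. UQCRC2 had 172, 178 and 188 CPM in DMSO CART19, against 202, 202 and 203 CPM in DMSO UTD (-0.17 ± 0.050, adjusted p = 0.0207, edgeR). Its call was lost without DMSO UTD replicate 2, DMSO CART19 replicate 1 or DMSO CART19 replicate 2 (adjusted p up to 0.143, edgeR), that of NDUFB8 without DMSO UTD replicate 3 or DMSO CART19 replicate 3, and that of MT-CO3 without DMSO UTD replicate 3 or DMSO CART19 replicate 1. Of the 13 mitochondrial mRNAs, 12 had values below 0 in SU-DHL-4, with a median of -0.14, and 12 in OCI-Ly18, with a median of -0.11. All DMSO CART19 libraries lay below all DMSO UTD libraries for 9 of the 13 in SU-DHL-4 (12.3% of all genes) and for 2 in OCI-Ly18 (17.1%), and at an unadjusted p under 0.05, 4 were lower in SU-DHL-4 and 2 in OCI-Ly18. The DMSO CART19 libraries also enter the drug comparison with CART19. Without TAZ CART19 replicate 1, 4 mitochondrial mRNAs were called lower, and 6 without TAZ CART19 replicate 2, libraries that enter only the shared spread. Under TAZ, 26 of 99 nuclear genes rose and NDUFS1 fell (background 6.66% and 7.86%), with a median of 0.14. The NDUFS1 call was lost in 7 of the 12 fits that left out 1 library (adjusted p up to 0.224, edgeR). COX7A2, a structural subunit of complex IV, had 108, 113 and 105 CPM in TAZ CART19, against 80.6, 89.3 and 78.6 CPM in TAZ UTD (0.41 ± 0.062, adjusted p = 2.3e-06, edgeR), and UQCRQ 81.2, 94.0 and 88.3 CPM, against 63.3, 72.3 and 67.3 CPM (0.39 ± 0.071, adjusted p = 5.66e-05, edgeR). Neither gene's groups overlapped. Complex V gave 7 of the 26 and complex IV 7. MT-ND5 fell (-0.36 ± 0.080) and MT-ATP8 rose (0.32 ± 0.095), calls lost in 2 and 3 of these 12 fits.

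Between the lines, the CART19 effect under DMSO was lower in SU-DHL-4 for SDHA (-0.36 ± 0.089) and UQCRC2 (-0.25 ± 0.066), the only calls for this difference (background 1.63% lower and 1.19% higher). The call of UQCRC2 was lost in 19 of the 24 fits that left out 1 library (adjusted p up to 0.199, edgeR) and that of SDHA in 5 (up to 0.104). Under TAZ it was lower in SU-DHL-4 for 4 members, MT-ND5, UQCRC2, NDUFS1 and ATP5F1B, and higher for ATP5MC2 (background 4.59% lower and 1.37% higher). Of these, ATP5F1B lost its call in 12 of 24 such fits, ATP5MC2 in 5 and NDUFS1 in 3.

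The interaction asks whether the drug effect differed between CART19 and UTD co-cultures. In OCI-Ly18 edgeR called 0 members (background 0.334% higher and 0.085% lower) and DESeq2 1. All 13 mitochondrial mRNAs had positive interaction values, with a median of 0.24, and 8 had an unadjusted p under 0.05, beside 6 nuclear genes higher and 6 lower. Leaving out DMSO UTD replicate 1 gave 5 calls, all mitochondrial, and leaving out TAZ CART19 replicate 2 also gave 5. In SU-DHL-4, 3 nuclear genes had a higher drug effect with CART19 (background 0.269% higher and 0.626% lower): ATP5MD (0.36 ± 0.091, adjusted p = 0.0356, edgeR), NDUFS8 (0.36 ± 0.090, adjusted p = 0.0332) and NDUFAB1 (0.34 ± 0.082, adjusted p = 0.0236). NDUFAB1 had 117 ± 5.03 CPM in TAZ CART19 and 123 ± 7.71 CPM in DMSO CART19, beside the clear gap with UTD given above. The count was 0 without DMSO CART19 replicate 3 and 9 without DMSO UTD replicate 2. It was 0 in the fit of all 24 libraries, 10 with DESeq2, and 14 without TAZ CART19 replicate 2, of which 8 were mitochondrial.

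At baseline, with DMSO and UTD, more of the single genes were higher in SU-DHL-4 than in OCI-Ly18, while the summed levels overlapped. The nuclear genes took 1.17%, 1.04% and 1.14% of counts in SU-DHL-4, against 1.13%, 1.07% and 1.05% in OCI-Ly18, and the mitochondrial mRNAs 6.25%, 6.96% and 6.66%, against 5.84%, 6.47% and 6.24%. Of 101 nuclear genes 60 were higher and 14 lower (background 29% and 35.9%), with a median of 0.41 against -0.10 over all genes, and 7 of 13 mitochondrial mRNAs were higher and 0 lower by edgeR, 8 and 0 at an unadjusted p under 0.05 and by DESeq2. Under upper quartile scaling, which moved the median of all genes to -0.24, the counts were 49 and 20 nuclear and 4 and 1 mitochondrial. MT-ND2 had 3678, 3907 and 3908 CPM in SU-DHL-4, against 2044, 2306 and 2189 CPM in OCI-Ly18 (0.90 ± 0.054), and MT-ND1 3473, 3841 and 3612 CPM, against 2213, 2436 and 2265 CPM (0.75 ± 0.053). MT-CO1 and MT-CO2 had 0.01 ± 0.077 and 0.01 ± 0.067, so the makeup of the mitochondrial pool differed: MT-ND2 took 5.76% of it over all SU-DHL-4 libraries and 3.56% over all OCI-Ly18 libraries.

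Nuclear baseline differences were larger. SDHB had 124, 123 and 141 CPM in SU-DHL-4, against 69.3, 65.6 and 72.2 CPM in OCI-Ly18 (1.0 ± 0.063), and COX19, an assembly factor of complex IV, 37.9, 30.3 and 32.8 CPM, against 13.1, 14.2 and 14 CPM (1.38 ± 0.11). ATP5F1A, the alpha subunit of the F1 head, went against the trend, with 1151, 1066 and 1113 CPM in SU-DHL-4, against 2232, 2202 and 2171 CPM in OCI-Ly18 (-0.90 ± 0.039, adjusted p = 2.46e-24, edgeR). None of these overlapped. NDUFV2, a core subunit of complex I, had 0.606, 2.57 and 2.04 CPM, against 5.76, 8.87 and 7.86 CPM (-2.02 ± 0.35), at levels far below its partners, with 28.4% of its exon bases overlapped and a pseudogene that held 539 counts beside its 1886.

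Isoforms of other tissues were all but silent. COX6A2 and COX7B2, of muscle and testis, had 0 counts over the 24 libraries, which allows up to 0.0074 CPM (3 counts, counting error only). COX8C had 1 count, COX4I2 had 7, all in SU-DHL-4 TAZ CART19 replicate 1, COX7A1 had 86 and COX6B2 121. Their common partners were far more abundant. At baseline COX4I1 had 344 ± 30.2 CPM in SU-DHL-4 and 267 ± 13 CPM in OCI-Ly18, COX7A2 88.3 ± 4.24 and 92.7 ± 4.05 CPM, COX6B1 123 ± 9.10 and 90.9 ± 9.41 CPM, COX8A 80.7 ± 13.2 and 50.1 ± 8.39 CPM, and COX6A1 58.1 ± 18.7 and 44.4 ± 19.6 CPM. COX6A1 and COX8A varied widely within groups and were called in no drug comparison. Per kilobase, the highest nuclear levels after ATP5F1B were those of ATP5F1A (200 CPM per kb in OCI-Ly18 and 99.0 in SU-DHL-4), UQCRH, the hinge protein of complex III (111 and 150), COX8A (103 and 162) and COX6B1 (102 and 139), against 11828 and 11756 for MT-CO1.

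Other mitochondrial gene lists were counted in the same drug comparisons, in which 12.7% of all genes fell in OCI-Ly18 and 18.3% in SU-DHL-4 with UTD, and 10.6% and 18.7% with CART19. Of the mitochondrial ribosome, which translates the 13 messages, 22 of 78 genes fell and 1 rose in OCI-Ly18 with tazemetostat and UTD (median -0.14), and 42 of 77 fell in SU-DHL-4 (median -0.26). MRPL47 had 32.8 ± 1.88 CPM in TAZ UTD and 50.8 ± 0.856 CPM in DMSO UTD of OCI-Ly18 (-0.69 ± 0.080). With CART19, 17 fell and 1 rose in OCI-Ly18 and 20 fell in SU-DHL-4. Of genes for mitochondrial transcription and DNA maintenance, 3 of 31 fell in OCI-Ly18 (9.68%, below the share of all genes) and 12 of 30 in SU-DHL-4 with UTD, and 3 and 13 with CART19. TFAM, which packages mitochondrial DNA and starts its transcription, had 173 ± 10.2 CPM in TAZ UTD and 203 ± 7.06 CPM in DMSO UTD of OCI-Ly18 (-0.29, adjusted p = 0.000292, edgeR), and POLRMT, the mitochondrial RNA polymerase, 109 ± 9.15 CPM in TAZ CART19 and 135 ± 6.05 CPM in DMSO CART19 of SU-DHL-4 (-0.38).

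Of the citric acid cycle, 8 of 19 genes fell and 1 rose in OCI-Ly18 with UTD, and 9 of 18 fell and 2 rose in SU-DHL-4, against 11.6% of all genes that rose in OCI-Ly18 and 17.2% in SU-DHL-4. CS, citrate synthase, had 457 ± 3.81 CPM in TAZ UTD and 601 ± 9.36 CPM in DMSO UTD of OCI-Ly18 (-0.46, adjusted p = 1.26e-09, edgeR), while IDH2 rose there (102 and 67.3 CPM) and fell in SU-DHL-4 (144 and 176 CPM). Of 19 glycolysis genes, 8 fell (42.1%) and 3 rose (15.8%) in OCI-Ly18, and 11 fell (57.9%) and 1 rose (5.26%) in SU-DHL-4. Among regulators of nuclear respiratory genes, NRF1 fell in both lines with UTD (34.7 CPM in TAZ and 39.7 CPM in DMSO of OCI-Ly18, adjusted p = 0.0473; 28.6 and 36.4 CPM in SU-DHL-4, adjusted p = 0.000263, edgeR). In OCI-Ly18 MYC rose with the drug (1337 CPM in TAZ UTD and 808 CPM in DMSO UTD, 0.67, adjusted p = 7.59e-13, edgeR) and HIF1A did too (150 and 122 CPM). Of mitochondrial tRNA and rRNA genes, 4 of 21 rose in OCI-Ly18 with CART19 and 6 of 24 in SU-DHL-4 (11% and 16.1% of all genes rose), and in SU-DHL-4 MT-TP had 105 ± 9.57 CPM in TAZ CART19 and 71.8 ± 0.872 CPM in DMSO CART19.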

How the data were processed

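Total RNA libraries (NEBNext Ultra II, per the labels' protocols) of 24 samples were analysed from the authors' table of raw counts per gene. The deposited counts are whole numbers, not normalized, and refer to hg38, per the submitters' processing notes, which also name DESeq2. For the aligner and the counter, with any strand setting, the name is not given in the sources used here. Gene lengths in the table equal the exon unions of GENCODE 29 for all 121 members.

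CPM was computed from the counts and each library's total. Genes were tested with edgeR 4.0.16 in R 4.3.3: filterByExpr by group, TMM factors, robust quasi-likelihood fits and Benjamini-Hochberg adjustment over all genes tested. Each line was fitted alone (12 libraries, 16467 genes in OCI-Ly18 and 14861 in SU-DHL-4, 8 residual degrees of freedom), and comparisons between lines came from 1 fit of 24 libraries (17766 genes). The fits were tested on simulated data. At 14783781 to 20148891 counts per library, with 3 libraries per group, both limit precision. Counts of replicates differed beyond sampling noise in all 24 pairs. Alternatives were RLE and upper quartile scaling, mitochondrial genes left out of library sizes, no filter, a stricter filter (1 CPM throughout 1 group, mean count 20), DESeq2 1.42.0, a replicate block, 1 library left out, and the fit of all 24 libraries. Removal of length and GC trends was added after seeing the data.

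The members and all gene lists were chosen with earlier results of these data known, and no list was tested. Genes were named by rule: the 13 mitochondrial and 4 complex II genes, the tissue isoforms and their partners, up to 6 increases and 6 decreases per comparison among nuclear genes called at 5 CPM or more without overlap of replicates, the 5 highest per kilobase, and up to 4 called genes of each other list. Not every gene so chosen is printed. MALAT1, COX16 and other members given in lists were named after their values were seen. Some items are not reported here.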

Additional observations from a re-analysis of the deposited data

Results flagged for a closer look

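Each gene here is named because a test of the difference itself was called by edgeR (adjusted p under 0.05 over all genes). The values are differences of log2 fold changes, and a positive line difference means a higher response in SU-DHL-4 than in OCI-Ly18.

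In SU-DHL-4, 3 complex I and V genes had a higher tazemetostat effect with CART19 than with UTD: ATP5MD by 0.36 ± 0.091 (adjusted p = 0.0356, edgeR), NDUFS8 by 0.36 ± 0.090 (adjusted p = 0.0332, edgeR) and NDUFAB1 by 0.34 ± 0.082 (adjusted p = 0.0236, edgeR). ATP5MD and NDUFAB1 fell with UTD in both lines. Their calls were lost in 7, 6 and 6 of the 12 fits that left out 1 library. All 3 were lost without TAZ UTD replicate 3, DMSO CART19 replicate 3 or TAZ CART19 replicate 3. Replicate 2 of TAZ CART19, which stands apart, enters each of these values, and the 3 calls were kept without it.

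For the drug effect with UTD, the lines differed in the accessory subunit NDUFB5 (0.42, adjusted p = 0.00121, edgeR), NDUFA4 (0.36, adjusted p = 0.0227) and SDHD (0.35, adjusted p = 0.0318), all higher in SU-DHL-4. ATP5F1D (-0.43, adjusted p = 0.00137), SDHA (-0.37, adjusted p = 0.00372) and the flavin-binding core subunit NDUFV1 (-0.28, adjusted p = 0.0375) were lower there. Of all genes, 6.9% were called higher and 3.66% lower in this comparison. The call of SDHD was lost in 18 of the 24 fits that left out 1 library (adjusted p up to 0.152, edgeR), that of NDUFA4 in 11 and that of NDUFV1 in 6.

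For the drug effect with CART19, the response was higher in SU-DHL-4 for NDUFA4L2 (1.24, adjusted p = 0.000833, edgeR), ATP5MG (0.58, adjusted p = 0.0277), ATP5PO (0.57, adjusted p = 0.000549), NDUFB3 (0.55, adjusted p = 0.0445), the stalk subunit ATP5PF (0.48, adjusted p = 0.000836), NDUFA4 (0.44, adjusted p = 0.00486), COX7B (0.39, adjusted p = 0.0263), COX4I1 (0.33, adjusted p = 0.011) and COX7A2 (0.29, adjusted p = 0.0338). With 1 library left out, COX7A2, COX7B and NDUFB3 lost their calls in 17 of 24 fits each, ATP5MG in 13 and COX4I1 in 9, while NDUFA4L2, ATP5PO, ATP5PF and NDUFA4 kept theirs.

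For the CART19 effect under DMSO, SDHA (-0.36, adjusted p = 0.0127, edgeR) and UQCRC2 (-0.25, adjusted p = 0.0283) were the 2 members called between the lines, both lower in SU-DHL-4, with 1.19% of genes called higher and 1.63% lower. The call of UQCRC2 was lost in 19 of 24 fits and that of SDHA in 5. Under TAZ, ATP5MC2 was higher (0.26, adjusted p = 0.0233), and UQCRC2 (-0.30, adjusted p = 0.00264), NDUFS1 (-0.26, adjusted p = 0.019), ATP5F1B (-0.16, adjusted p = 0.0362) and MT-ND5 (-0.52, adjusted p = 0.0164) were lower in SU-DHL-4, with 1.37% of genes called higher and 4.59% lower. ATP5F1B lost its call in 12 of 24 fits, ATP5MC2 in 5 and NDUFS1 in 3.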

How the results depend on the processing

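Members chosen by the naming rule above had 228 calls over all comparisons. Calls of other members are not included in these numbers. Refitted under the alternatives other than leaving out a library, 1791 of 1977 values of these calls kept direction and call, 181 lost the call and 5 changed sign. With 1 library left out, 497 of 3636 lost the call, and 129 of the 228 calls were kept without any 1 library. Results of the same members that were not called gained a call 132 times under the alternatives and 170 times with 1 library left out. With NDUFA4 in SU-DHL-4, which was not called, 6 values changed sign, all with length and GC trends removed: NDUFA4 in SU-DHL-4 with tazemetostat and UTD (0.12), and, between the lines at baseline, UQCRC2 (0.13), SDHC (0.35), NDUFS3 (-0.036), NDUFAF3 (-0.021) and ATP5S (0.038). The cause was not tested.

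Counts of members called moved by over 1.5 times as follows. Without a filter, CART19 against UTD in OCI-Ly18 gave 14 under DMSO and 25 under TAZ, the interaction gave 5 in OCI-Ly18 and 9 in SU-DHL-4, and the line difference in the CART19 effect under DMSO gave 1. That line difference also gave 1 with RLE scaling, 1 with the stricter filter and 4 with length and GC trends removed. The OCI-Ly18 interaction gave 1 with mitochondrial genes left out of library sizes, 1 with DESeq2 and 1 in the fit of all 24 libraries, and the SU-DHL-4 interaction 10 with DESeq2, 5 with length and GC trends removed and 0 in the fit of all 24 libraries. Tazemetostat with UTD in SU-DHL-4 gave 19 with upper quartile scaling and 25 in the fit of all 24 libraries. The median of all genes moved by over 0.1 only at baseline, with upper quartile scaling.

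Samples with the same replicate number did not deviate together (18 pairs per line, r from -0.133 to 0.065 in OCI-Ly18 and from -0.119 to 0.055 in SU-DHL-4, 0 over 0.1). Low values of r cannot decide whether a number marks samples handled together. The samples were not paired by number except in the replicate block. With a replicate block, CART19 against UTD under DMSO in OCI-Ly18 gave 4 members.

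With 1 library left out, members called with tazemetostat numbered 23 to 39 with UTD and 23 to 54 with CART19 in OCI-Ly18, and 25 to 45 and 15 to 39 in SU-DHL-4. CART19 against UTD gave 0 to 16 under DMSO and 10 to 18 under TAZ in OCI-Ly18, and 1 to 9 and 22 to 35 in SU-DHL-4. The interaction gave 0 to 5 in OCI-Ly18 and 0 to 14 in SU-DHL-4, and the baseline comparison 73 to 83. Line differences gave 4 to 7 for the drug with UTD, 5 to 17 for the drug with CART19, 0 to 3 for CART19 under DMSO and 2 to 9 for CART19 under TAZ.

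The shares depend on the total. The mitochondrial share was 5.88% in OCI-Ly18 TAZ UTD and 6.20% in SU-DHL-4 DMSO CART19 with TMM scaling (factors of the fit of all 24 libraries), and 6.15% in SU-DHL-4 DMSO CART19 with RLE scaling. Over protein-coding counts it was 6.76% in OCI-Ly18 TAZ CART19, 7.59% in SU-DHL-4 TAZ UTD and 6.14% in SU-DHL-4 DMSO CART19. With RLE scaling, SU-DHL-4 TAZ UTD replicate 2 had a mitochondrial share of 7.19% and DMSO UTD replicate 2 had 7.29%. These groups thus overlapped. The nuclear share over counts without mitochondrially encoded genes was 1.12% in TAZ CART19, 1.23% in DMSO CART19, 1.07% in TAZ UTD and 1.16% in DMSO UTD of OCI-Ly18, and 1.25%, 1.20%, 1.16% and 1.21% in the same groups of SU-DHL-4. It was 0.940% in OCI-Ly18 TAZ UTD and 1.17% in SU-DHL-4 DMSO CART19 with TMM scaling, and 0.951% and 1.16% in these 2 groups with RLE scaling. Over protein-coding counts it was 1.08% in TAZ CART19, 1.20% in DMSO CART19 and 1.04% in TAZ UTD of OCI-Ly18, and 1.16% in DMSO CART19 and 1.10% in TAZ UTD of SU-DHL-4.

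With 1 library left out, the mitochondrial share ranged over 6.43 to 6.64% in TAZ CART19, 5.50 to 5.77% in DMSO CART19, 6.08 to 6.40% in TAZ UTD and 6.04 to 6.35% in DMSO UTD of OCI-Ly18, and over 7.09 to 7.74%, 5.90 to 6.01%, 7.28 to 7.40% and 6.45 to 6.81% in the same groups of SU-DHL-4. The nuclear share ranged over 1.02 to 1.06%, 1.14 to 1.17%, 0.986 to 1.01% and 1.06 to 1.10% in OCI-Ly18, and over 1.12 to 1.17%, 1.12 to 1.13%, 1.06 to 1.07% and 1.09 to 1.15% in SU-DHL-4.

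With 3 libraries per group, a p that missed the threshold does not show that values did not differ. Of the 121 members, 65 share exon bases with another gene and 50 have pseudogenes by name, and how their reads were assigned is not stated.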

Other observations

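Other lists were counted in the same drug comparisons. Of all genes tested, 12.7% fell and 11.6% rose in OCI-Ly18 and 18.3% fell and 17.2% rose in SU-DHL-4 with UTD, and 10.6% fell and 11% rose in OCI-Ly18 and 18.7% fell and 16.1% rose in SU-DHL-4 with CART19. Of 17 genes of the mitochondrial unfolded protein response and proteases, 5 fell (29.4%) and 2 rose with tazemetostat and UTD in OCI-Ly18 and 11 fell (64.7%) in SU-DHL-4, and with CART19 11 fell in OCI-Ly18, and 10 fell and 1 rose in SU-DHL-4. Of the TIM and TOM import genes, 5 of 24 fell in OCI-Ly18 (20.8%) and 13 of 23 in SU-DHL-4 (56.5%) with UTD, and 8 in each line with CART19. Of 44 other assembly and carrier genes of the respiratory chain, 7 fell (15.9%, near the share of all genes) and 1 rose in OCI-Ly18 and 18 fell (40.9%) and 1 rose in SU-DHL-4 with UTD. Of 93 cytosolic ribosomal protein genes, 3 fell (3.23%) and 9 rose (9.68%) in OCI-Ly18 and 21 fell (22.6%) and 3 rose (3.23%) in SU-DHL-4 with UTD, whereas with CART19 3 fell and 17 rose (18.3%) in OCI-Ly18, and 4 fell and 31 rose (33.3%) in SU-DHL-4.

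IDH2, the NADP-dependent isocitrate dehydrogenase of mitochondria, rose with CART19 in both lines. Under DMSO it had 97.9 ± 6.87 CPM with CART19 and 67.3 ± 3.55 CPM with UTD in OCI-Ly18 (0.56 ± 0.069), and 291 ± 6.69 and 176 ± 6.95 CPM in SU-DHL-4 (0.73 ± 0.049). Under TAZ it had 131 ± 8.05 CPM with CART19 and 102 ± 6.97 CPM with UTD in OCI-Ly18, and 262 ± 6.80 and 144 ± 3.72 CPM in SU-DHL-4. MT-TP, the mitochondrial proline tRNA, had a called interaction of drug and CART19 in both lines, 0.71 ± 0.11 in OCI-Ly18 (adjusted p = 0.00137, edgeR) and 0.52 ± 0.11 in SU-DHL-4 (adjusted p = 0.015, edgeR).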
